A study of Homo sapiens with 8 samples.

Results

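Expression of the genes for the mitochondrial protein import translocases was measured by RNA-seq of total RNA in U2OS cells, an established human osteosarcoma line. The genes were taken by symbol: every TIMM or TOMM symbol followed by a number, and PMPCA, PMPCB, DNLZ, GRPEL1, GRPEL2, PAM16, SAMM50 and CHCHD4. That gave 33 of the 19414 genes in the deposited tables, of which 32 passed the filter on low values and were tested. TOMM20L did not pass and stood between 0.612 and 4.38 CPM (tags per 1e+06 exon tags of the library, scaled) in the 8 libraries. The groups, 2 libraries each, were U2OS cells with Zab and overexpressed MYC (labelled Zab + MYC O/E, here Zab+MYC), cells with overexpressed MYC alone (MYC O/E, here MYC), cells with Zab alone (Zab), and cells with neither (WT). The design text spells Zab as Zαβ, which in general use names the Z-nucleic-acid-binding domains of the editing enzyme ADAR1, and the series title ties MYC and the histone chaperone FACT to Z-DNA. The labels do not say how MYC and Zab were expressed or whether the lines are clones.

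Nearly all mitochondrial proteins are made in the cytosol and must be carried across the mitochondrial membranes. The TOM complex is the entry gate of the outer membrane: receptors bind precursors and the TOMM40 channel passes them through. Small TIM chaperones guide membrane proteins through the space behind it, the SAM complex inserts barrel proteins into the outer membrane, CHCHD4 oxidises and traps cysteine-rich proteins between the membranes, TIM22 inserts carrier proteins into the inner membrane, and TIM23 with its motor pulls proteins with a presequence into the matrix, where the peptidase of PMPCA and PMPCB removes that presequence. MYC is a transcription factor that binds DNA with its partner MAX, best at the letters CACGTG (an E-box), and is known for raising genes of growth and mitochondrial biogenesis.

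The promoters with letters bound by MYC, or with letters that readily take the Z form, are shown first because the study joins MYC with Z-DNA. Windows from 250 bases before to 50 after the start of the gene (RefSeq, GRCh38.p14) were at hand for 29 of the 33 genes, without DNLZ, GRPEL1, TIMM8B and TOMM5. CACGTG, which reads alike on both strands, was found in 3 of the 29 (10.3%), against 852 of 7889 tested genes with a window (10.8%). CGCGCG, also alike on both strands, was found in 4 (13.8%: CHCHD4, TIMM10B, TIMM13 and TIMM17A), against 29.8% of the tested genes. Neither share stood above that of the tested genes, and CACACACA or its complement TGTGTGTG was in none of the 29 windows, against 1.88% of the tested genes. A match here is letters and no measured binding. The windows with CACGTG are those of TIMM10, where the letters begin 1 base before the start, TOMM20, where they begin 168 bases before it, and TIMM8A, where they begin 29 bases after the start. TIMM13 holds the most CGCGCG matches of any of the 29, 4 of them, 2 of which overlap. The first 280 bases of 3 of these windows, and 30 bases around the TIMM8A match, read 5′ to 3′ on the gene's strand, with the matched letters in capitals:
TIMM10, chr11:57530725-57531004, minus strand: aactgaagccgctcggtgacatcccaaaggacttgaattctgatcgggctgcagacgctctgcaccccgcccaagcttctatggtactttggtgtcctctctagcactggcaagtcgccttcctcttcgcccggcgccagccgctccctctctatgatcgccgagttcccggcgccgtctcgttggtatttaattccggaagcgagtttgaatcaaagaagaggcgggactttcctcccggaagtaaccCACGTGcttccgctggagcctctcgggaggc
TOMM20, chr1:235128808-235129087, minus strand: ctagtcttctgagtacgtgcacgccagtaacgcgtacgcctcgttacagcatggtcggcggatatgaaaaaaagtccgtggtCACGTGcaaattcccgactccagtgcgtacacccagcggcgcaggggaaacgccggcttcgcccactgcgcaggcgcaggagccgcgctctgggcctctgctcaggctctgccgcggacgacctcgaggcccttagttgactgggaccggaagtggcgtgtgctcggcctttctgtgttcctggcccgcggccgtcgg
TIMM8A, chrX:101348697-101348726, minus strand: ccgtcgcggagaCACGTGaaggtcggtgcg
TIMM13, chr19:2427557-2427836, minus strand: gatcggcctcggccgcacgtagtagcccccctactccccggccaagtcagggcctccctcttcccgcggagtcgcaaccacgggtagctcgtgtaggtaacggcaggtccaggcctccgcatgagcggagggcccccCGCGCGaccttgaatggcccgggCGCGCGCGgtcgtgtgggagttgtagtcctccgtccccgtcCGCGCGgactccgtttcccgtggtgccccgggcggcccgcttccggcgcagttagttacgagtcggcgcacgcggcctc

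Exon tags per library ran from 686992 to 1326170. In every group the 2 libraries differed by no more than counting noise: the chi-square of their tags over genes, divided by its degrees of freedom, was 1.004 in Zab+MYC (p = 0.399), 0.999 in MYC (p = 0.527), 1.005 in Zab (p = 0.368) and 1.022 in WT (p = 0.0661). The labels do not say that they came from separate cultures. The p-values below therefore measure little more than counting error between libraries, and if the libraries of a group are counted as 1 sample, n is 1 per group and no test of the conditions can be made. MYC mRNA, in which introduced and own transcripts are not separated, averaged 706 ± 1.28 CPM in Zab+MYC, 1263 ± 37.1 in MYC, 212 ± 25.1 in Zab and 83.7 ± 15.8 in WT (SD, n = 2 each). ADAR, which holds the Zαβ sequence in general use, averaged 1043 ± 34.7 CPM in Zab+MYC, 239 ± 11.8 in MYC, 6101 ± 138 in Zab and 267 ± 3.75 in WT. The summed osteosarcoma and mesenchymal markers averaged 7680 ± 91.4 CPM in Zab+MYC, 5385 ± 110 in MYC, 8682 ± 294 in Zab and 10181 ± 132 in WT, the reverse of the order of MYC mRNA. Their COL1A1 averaged 225 CPM in Zab+MYC, 116 in MYC, 802 in Zab and 1140 in WT, and RUNX2 7.66 in Zab+MYC, 11.1 in MYC, 7.42 in Zab and 19.3 in WT. Among the others VIM ran from 4805 to 7308 CPM and SPARC from 378 to 1850. VIM, the largest part of the sum, did not follow its order, averaging 6789 in Zab+MYC, 4872 in MYC, 6577 in Zab and 7169 in WT. ALPL was low and went another way, at 6.22 in Zab+MYC, 3.69 in MYC, 1.435 in Zab and 1.06 in WT. SP7 and IBSP were at 0 in 7 of 8 libraries, COL1A2 in 6 and BGLAP in 4. Summed epithelial markers were at 4.25 to 4.87 CPM in Zab+MYC, 2.80 to 3.57 in MYC, 4.30 to 7.96 in Zab and 30.3 to 33.9 in WT, in WT most of it KRT14, and summed haematopoietic markers at 0 to 3.74 in all libraries, with CD3E at 0 in all 8.

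On library totals, import genes as a body were lowest in WT and highest in cells that overexpressed MYC alone. The Zab and Zab+MYC cells lay between them. Their summed level was 3945 ± 145 CPM in Zab+MYC, 5012 ± 105 in MYC, 2755 ± 146 in Zab and 2129 ± 26.8 in WT (SD, n = 2 each), and no library of one group overlapped another. The order WT, Zab, Zab+MYC, MYC from low to high was that of the group means in 24 of 32 tested import genes (75.0%), against 18.0% of all 9673 genes tested. In 13 of the 32 (40.6%) the 4 groups kept this order without overlap between libraries, against 6.93% of all genes. Both Zab+MYC libraries lay below both MYC libraries in 23 of the 32 (71.9%), against 30.2% of all genes. MYC mRNA has the same order of groups and the summed osteosarcoma and mesenchymal markers the reverse order, as their values above show, and the part of either in the levels of the import genes was not tested. The other orders were Zab lowest and MYC highest in TOMM20, TOMM34 and PMPCB, Zab highest in TIMM17B and GRPEL2, Zab+MYC highest in SAMM50 and DNLZ, and Zab+MYC lowest with MYC highest in TOMM7. Levels here are shares of each library's tags, so a change in total RNA per cell would not be seen in them. On the scale of the deposited values 21 of 32 import genes were lower in Zab than in WT, against 3 on library totals. The place of WT below Zab was therefore not kept there for most import genes.

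**Figure D1:**
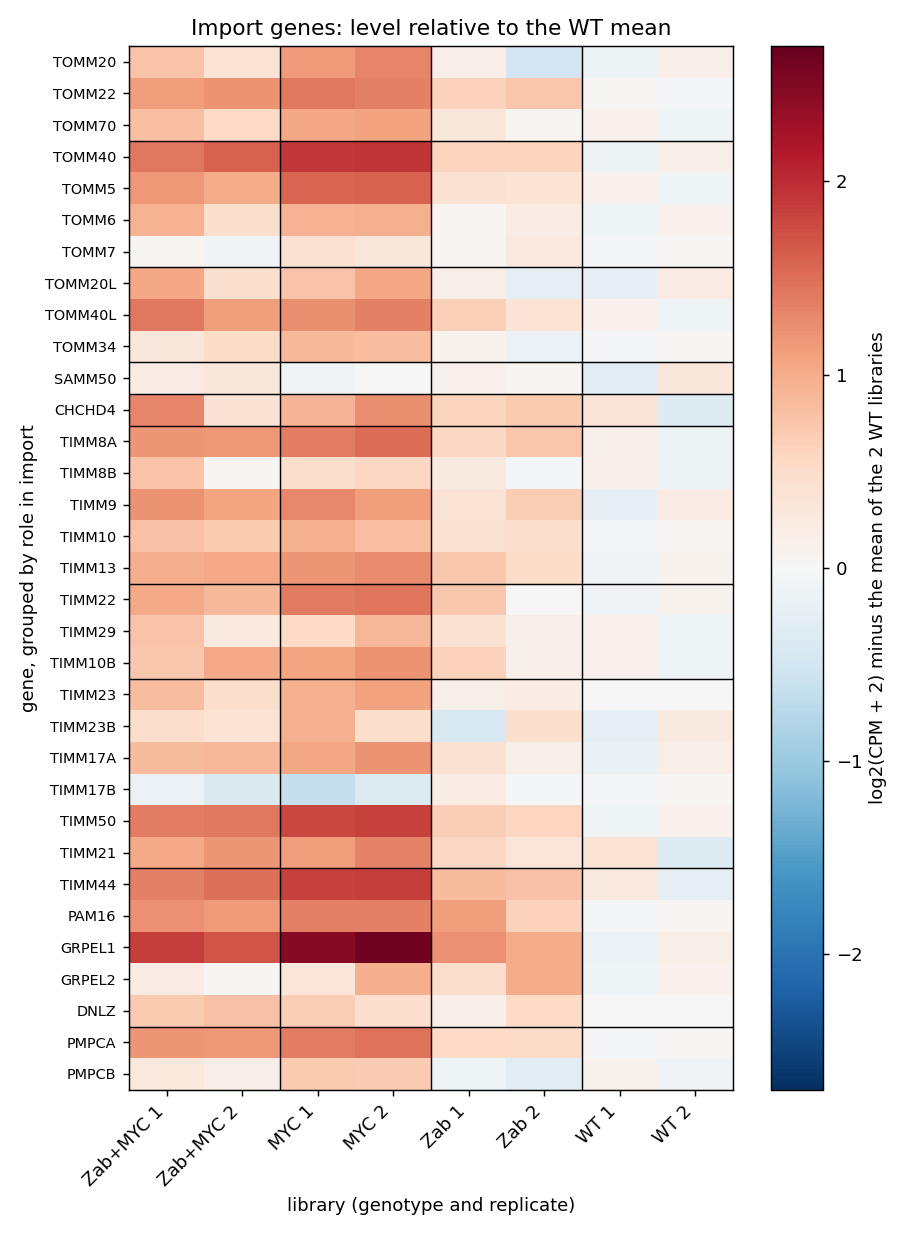
Level of each of the 33 import genes (rows, grouped by role) in each library (columns), as log2(CPM + 2) minus the mean of the 2 WT libraries, on a colour scale from blue (below WT) to red (above WT). The MYC columns are the deepest red in most rows, GRPEL1 the deepest of all, while TIMM17B is blue in the Zab+MYC and MYC columns and SAMM50 is pale throughout.

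Most of the import machinery was higher with overexpressed MYC. Of the 32 tested genes 28 rose in MYC against WT and 1, TIMM17B, fell, where 27.8% of all genes tested rose and 30.4% fell at a Benjamini-Hochberg adjusted p under 0.05 in limma. Their median log2 fold change, like all those below on the log2(CPM + 2) scale, was 1.14, against -0.04 over all genes. GRPEL2, SAMM50 and TIMM8B were not called, at log2 fold changes of 0.65 ± 0.36, -0.04 ± 0.19 and 0.53 ± 0.26 (SE). All 3 TOM receptors rose, as did the 4 genes of the TOM channel and its small subunits, 4 of 5 small TIM chaperones, all 3 genes of TIM22, 5 of 6 of TIM23, 4 of 5 of the motor and both subunits of the processing peptidase. The calls of CHCHD4, DNLZ, TIMM17B, TIMM23B, TIMM29 and TOMM7 were each lost when at least 1 single library was left out, and the other 23 held under all alternatives run.

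The receptors of the TOM complex bind precursors first: TOMM20 and TOMM22 mainly those with presequences, TOMM70 mainly carriers and other precursors brought by cytosolic chaperones. TOMM20 stood at 126 and 95.0 CPM in Zab+MYC, 165 and 187 in MYC, 83.2 and 50.8 in Zab, against 66.2 and 81.1 in WT. Its Zab and WT libraries overlapped, and MYC lay clear above all others. The log2 fold change in MYC against WT was 1.24 ± 0.17 (SE, limma adjusted p = 1.2e-09). TOMM22, the receptor that also holds the complex together, had 87.6 and 94.3 CPM in Zab+MYC, 108 and 104 in MYC, 61.7 and 67.3 in Zab, against 40.4 and 38.1 in WT, with no overlap between any groups. Its change in MYC against WT was 1.39 ± 0.17. TOMM70 had 114 and 95.0 CPM in Zab+MYC, 135 and 140.0 in MYC, 80.3 and 67.9 in Zab, against 70.7 and 59.3 in WT, where only the Zab and WT libraries overlapped.

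TOMM40, the channel itself, had the second largest change in MYC against WT, 1.92 ± 0.10 (limma adjusted p = 5.6e-27), a 3.78-fold rise. It stood at 307 and 346 CPM in Zab+MYC, 431 and 441 in MYC, 173 and 175 in Zab, against 104 and 125 in WT. Each group was separate from every other. The transcript counted for TOMM40 differed between genotypes: its exon length was 1691 bases in Zab+MYC and MYC, 1751 in Zab and 1654 in WT, and its part in the difference was not tested. Of the small subunits that steady the channel, TOMM5 had 418 and 374 CPM in Zab+MYC, 554 and 560 in MYC, 247 and 241 in Zab, against 201 and 172 in WT, and rose 2.98-fold in MYC against WT (log2 1.57 ± 0.09). TOMM6 rose by 0.96 ± 0.20 and TOMM7 by 0.36 ± 0.14 on the log2 scale, with TOMM7 in MYC at 132 and 121 CPM and in WT at 96.5 and 99.6. Without WT replicate 2 the TOMM7 value was 0.39 at an adjusted p of 0.059, and without MYC replicate 1 it was 0.34 at 0.14. Per kilobase of counted transcript TOMM5 was the most abundant import gene in Zab+MYC, MYC and WT, at 438, 616 and 214 CPM per kb. In Zab its mean was 270, below that of PAM16 at 284.5. The Zab libraries of PAM16 were far apart, at 176 and 122 CPM, so that this ranking is uncertain. In the annotated transcripts compared, all 50-base stretches of TOMM6 and 83.1% of those of TOMM5 also occur in transcripts of other annotated genes. This makes both counts uncertain. For TOMM40 the share is 23.3%.

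**Figure D2:**
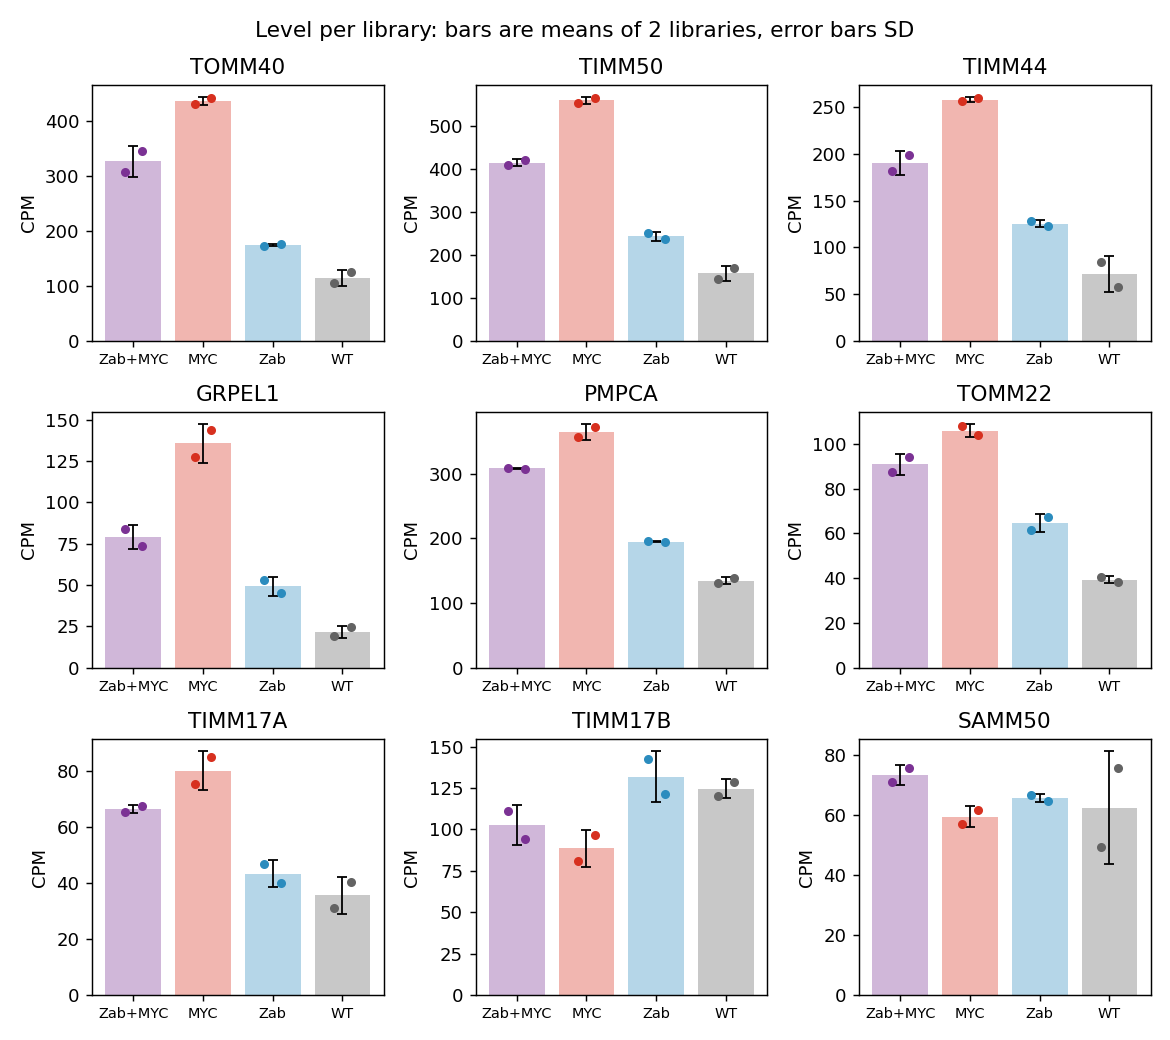
Level (CPM, axis from 0) of 9 import genes in each group, with the bar at the mean of 2 libraries, the error bar their SD and the points the libraries. TOMM40, TIMM50, TIMM44, GRPEL1, PMPCA and TOMM22 step down from MYC to Zab+MYC, Zab and WT without overlap, whereas TIMM17B is lowest in MYC and SAMM50 shows no such steps.

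TOMM34, a cytosolic cochaperone of import, rose by 0.85 ± 0.15, and TOMM40L, a paralog of the channel, by 1.31 ± 0.25 in MYC against WT. TOMM40L had 53.0 and 42.5 CPM in Zab+MYC, 46.7 and 50.8 in MYC, 30.1 and 24.5 in Zab, against 20.2 and 17.0 in WT, so its Zab+MYC and MYC libraries overlapped. SAMM50, the core of the complex that inserts barrel proteins into the outer membrane, was the flattest import gene in MYC against WT. It stood at 71.0 and 75.8 CPM in Zab+MYC, 57.0 and 61.9 in MYC, 66.7 and 64.9 in Zab, against 49.2 and 75.8 in WT, the last pair spanning the values of the MYC and Zab libraries. None of its 5 contrasts was called, and in the 4 comparisons of genotypes its log2 changes lay between -0.04 and 0.30. CHCHD4, the oxidoreductase of the intermembrane space, was low: 18.0 and 8.51 CPM in Zab+MYC, 13.1 and 17.1 in MYC, 10.04 and 11.0 in Zab, against 8.20 and 4.24 in WT. Its rise in MYC against WT was 1.09 ± 0.40 (limma adjusted p = 0.016). It was 0.95 at an adjusted p of 0.13 without MYC replicate 2 and 0.74 at 0.19 without WT replicate 2.

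Small TIM proteins escort hydrophobic precursors across the intermembrane space, TIMM9 with TIMM10 mainly carriers and TIMM8A with TIMM13 precursors such as that of TIMM23. TIMM8A had 38.9 and 38.3 CPM in Zab+MYC, 44.8 and 49.2 in MYC, 24.4 and 28.2 in Zab, against 17.7 and 14.3 in WT, with no overlap. TIMM13 stood at 133 and 135 CPM in Zab+MYC, 153 and 163 in MYC, 111 and 94.2 in Zab, against 61.2 and 71.0 in WT, also with no overlap. Their changes in MYC against WT were 1.45 ± 0.26 and 1.24 ± 0.14. TIMM10 had 117 and 110 CPM in Zab+MYC, 132 and 119 in MYC, 88.9 and 91.8 in Zab, against 65.0 and 67.8 in WT, and rose by 0.89 ± 0.15 in MYC against WT, again with the 4 groups apart. For TIMM9 the values were 85.2 and 76.6 CPM in Zab+MYC, 89.7 and 79.7 in MYC, 46.6 and 56.9 in Zab, against 30.3 and 41.3 in WT. The 2 groups with overexpressed MYC overlapped there, and the change in MYC against WT was 1.21 ± 0.19. TIMM8B had 48.2 and 28.4 CPM in Zab+MYC, 39.2 and 41.6 in MYC, 33.0 and 26.9 in Zab, against 30.3 and 24.9 in WT. In the main fit it was called in none of the comparisons, with a limma adjusted p of 0.073 in MYC against WT. There it was called in edgeR, with the filter of 5 CPM and in the 4 libraries alone, but not in DESeq2 or with other scalings or pseudocounts. TIMM10 and TIMM8A are among the 3 with a CACGTG in the window shown above, and their changes of 0.89 and 1.45 lie on either side of the import genes' median.

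TIMM22, the channel of carrier insertion, stood at 92.0 and 82.2 CPM in Zab+MYC, 120.0 and 125 in MYC, 74.6 and 44.1 in Zab, against 41.0 and 47.7 in WT. Its Zab libraries were far apart and overlapped WT, and MYC was above all other groups. TIMM22 rose by 1.43 ± 0.18 in MYC against WT. Its partners rose by 1.14 ± 0.23 for TIMM10B, the small TIM that docks on it, and 0.72 ± 0.26 for TIMM29 (limma adjusted p = 0.014). Without MYC replicate 2 TIMM29 was at 0.59 with an adjusted p of 0.14, and without WT replicate 2 at 0.61 with 0.09. TIMM10B had 47.2 and 58.8 CPM in Zab+MYC, 60.3 and 67.0 in MYC, 43.8 and 30.6 in Zab, against 30.3 and 25.4 in WT, and its groups did not overlap.

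TIM23 carries presequence proteins into and across the inner membrane, with TIMM50 as its receptor on the side of the intermembrane space. TIMM50 (hg19 chr19:39971478-39984419, plus strand) had 409 and 421 CPM in Zab+MYC, 554 and 565 in MYC, 250.3 and 236 in Zab, against 145 and 169 in WT. Its 4 groups were well apart, and its rise in MYC against WT was 1.83 ± 0.09 (3.55-fold, limma adjusted p = 3.9e-29). TIMM23, a core channel subunit, had 242 and 189 CPM in Zab+MYC, 267 and 289 in MYC, 152 and 155 in Zab, against 137 and 135 in WT, without overlap, and rose by 1.02 ± 0.11. TIMM21, which links TIM23 to the TOM complex and to the respiratory chain, rose by 1.23 ± 0.23. The 2 alternative forms of the other core subunit went opposite ways. TIMM17A had 65.2 and 67.3 CPM in Zab+MYC, 75.2 and 84.9 in MYC, 46.6 and 39.8 in Zab, against 30.9 and 40.3 in WT, and rose by 1.14 ± 0.20 in MYC against WT. TIMM17B had 111 and 94.3 CPM in Zab+MYC, 80.8 and 96.4 in MYC, 143 and 121 in Zab, against 120.5 and 129 in WT, and fell by 0.49 ± 0.15 on the log2 scale (limma adjusted p = 0.003). In MYC replicate 1 another TIMM17B transcript was counted, of 935 bases against 1085 in MYC replicate 2 and both WT libraries. Without that library TIMM17B was at -0.32 with an adjusted p of 0.14, and DESeq2 gave -0.47 at 0.077. TIMM23B is a copy of TIMM23 on the same chromosome. Of the 50-base stretches of TIMM23, 17% also occur in TIMM23B, and 7.34% of those of TIMM23B occur in TIMM23. TIMM23B also overlaps NCOA4 over 25627 bases and MSMB over 12965 on the same strand. It overlaps TIMM23 over 31270 bases on the other strand, and the part of these overlaps in its count was not tested. TIMM23B had 22.9 and 21.3 CPM in Zab+MYC, 32.7 and 23.0 in MYC, 11.5 and 22.03 in Zab, against 13.3 and 19.1 in WT. Its rise of 0.72 ± 0.32 lay at an adjusted p of 0.0496 in limma, was 0.52 at 0.31 without MYC replicate 1 and 0.50 at 0.28 without WT replicate 1, and reads of the 2 copies may have been split between them.

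GRPEL1, the nucleotide exchange factor of the matrix import chaperone mtHSP70, had the largest change of all import genes in MYC against WT. It rose 5.85-fold (log2 2.55 ± 0.19, limma adjusted p = 3.2e-19). GRPEL1 (hg19 chr4:7060622-7069791, minus strand) stood at 84.2 and 73.7 CPM in Zab+MYC, 128 and 144 in MYC, 53.1 and 45.3 in Zab, against 18.9 and 24.4 in WT, and no groups overlapped. TIMM44, which tethers mtHSP70 to the TIM23 channel, had 182 and 199 CPM in Zab+MYC, 256 and 260.1 in MYC, 128 and 123 in Zab, against 84.5 and 57.7 in WT, and rose 3.62-fold (log2 1.86 ± 0.13). PAM16, a regulator of the J protein of the motor, had 189 and 177 CPM in Zab+MYC, 207 and 205 in MYC, 176 and 122 in Zab, against 76.3 and 82.1 in WT. Both MYC libraries lay above every other library, and PAM16 rose by 1.36 ± 0.13. Of its 50-base stretches 73.4% also occur in the annotated readthrough gene CORO7-PAM16. GRPEL2, the paralog of GRPEL1, had 11.7 and 9.92 CPM in Zab+MYC, 12.6 and 21.0 in MYC, 14.4 and 21.4 in Zab, against 8.83 and 10.6 in WT. It was the least abundant tested import gene per kilobase, between 2.42 and 4.46 CPM per kb over the groups. DNLZ, a zinc-finger escort of mtHSP70, had its call at 0.56 ± 0.24 (limma adjusted p = 0.044) and lost it when any MYC or WT library was left out, with values of 0.49 to 0.71. In an annotated DNLZ transcript of 724 bases, 92.9% of the 50-base stretches also occur in a transcript of CARD9. The DNLZ transcript counted has 3091 exon bases, and sharing over its whole length was not read.

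The matrix processing peptidase has a catalytic subunit, PMPCB, and a presequence-binding subunit, PMPCA. PMPCA had 309 and 307 CPM in Zab+MYC, 356 and 373 in MYC, 196 and 194 in Zab, against 131 and 138 in WT, 4 separate groups. It rose 2.69-fold in MYC against WT (log2 1.43 ± 0.10). PMPCB had 246 and 228 CPM in Zab+MYC, 330 and 329 in MYC, 188 and 165 in Zab, against 216 and 190 in WT, and rose 1.62-fold (log2 0.70 ± 0.10). For PMPCB the Zab libraries were below the WT libraries, the reverse of PMPCA. PMPCB overlaps DNAJC2 on the other strand over 2398 bases. As the use of strand is not given, the PMPCB count may hold DNAJC2 reads, which was not tested.

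**Figure D3:**
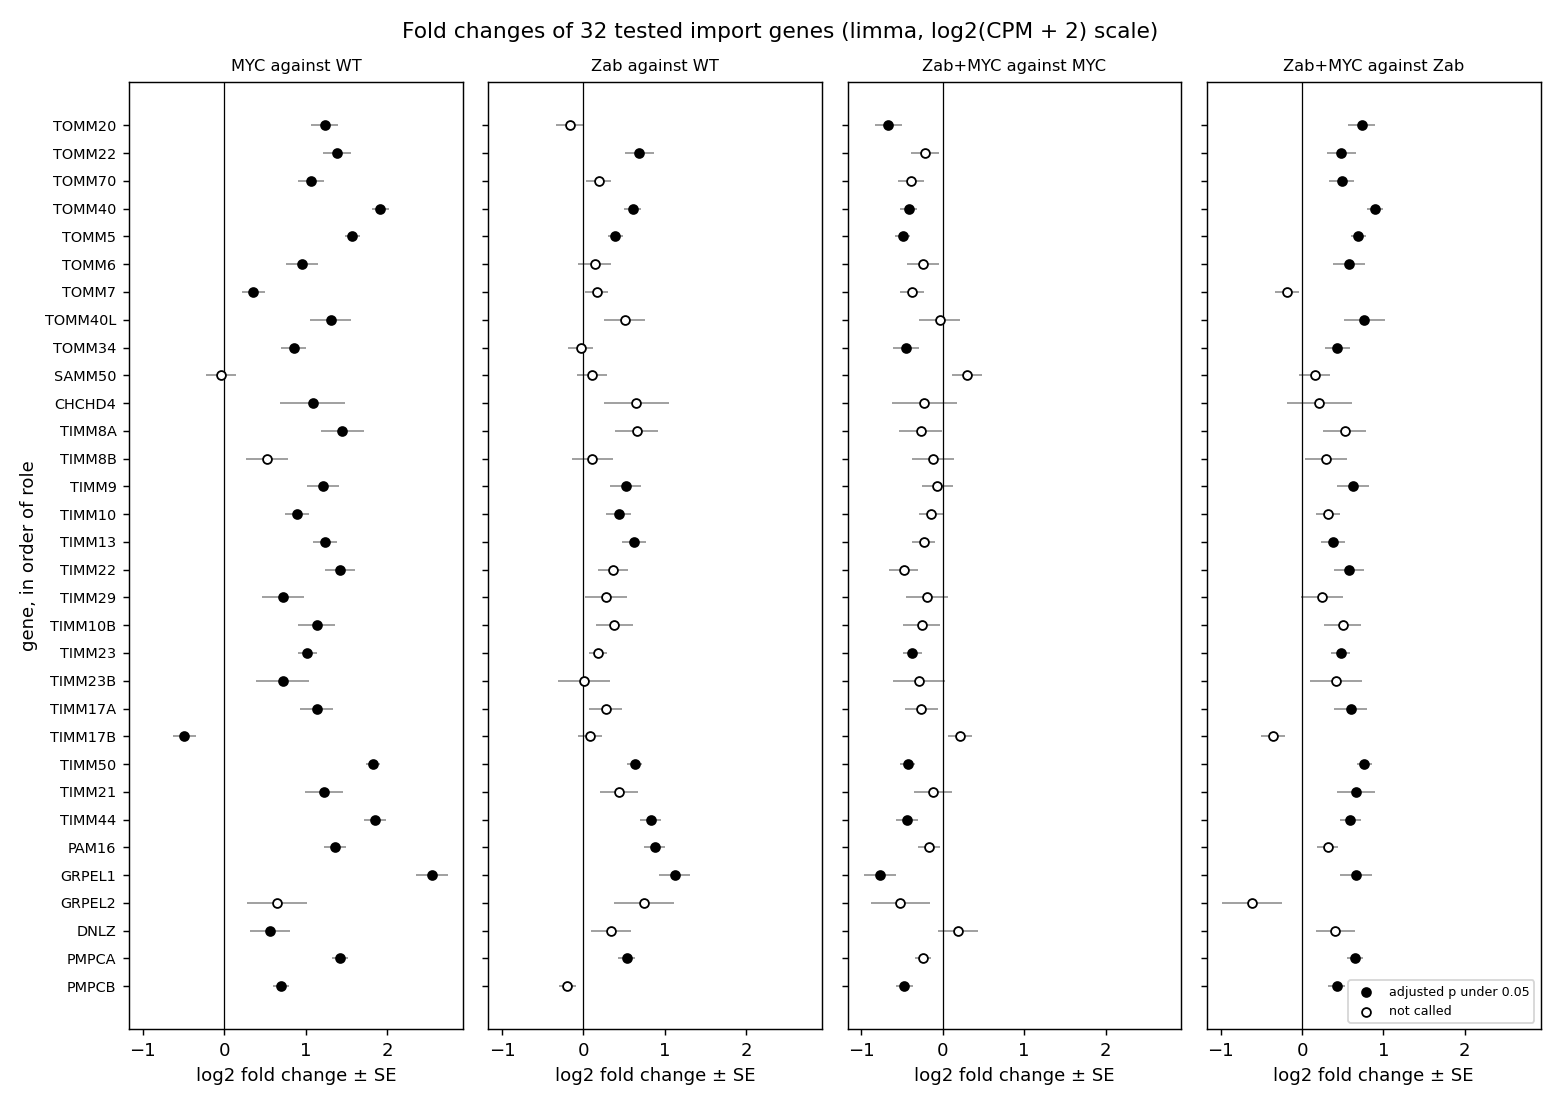
Log2 fold change ± SE of the 32 tested import genes (rows, in order of role) in 4 comparisons of genotypes, filled where the limma adjusted p is under 0.05. In MYC against WT nearly all points are filled and right of 0; in Zab+MYC against MYC the 9 filled points are all left of 0. Values are on the scale of library totals; on the deposited scale Zab against WT has 2 filled points to the right and 6 to the left.

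Zab alone, without overexpressed MYC, went with smaller rises that depend on the scaling. Of the 32 genes 11 rose in Zab against WT and 0 fell on library totals, where 13.1% of all genes tested rose and 11.3% fell in limma. The number that fell was also 0 at an unadjusted p under 0.05 and in edgeR and DESeq2. The median log2 fold change was 0.38, against -0.0003 over all genes. On the deposited scale, on which the median of all genes is at -0.51, 2 rose and 6 fell and 21 of 32 values were below 0, with the import genes' median at -0.14, so the rise holds relative to other genes and not on that scale. The 2 that rose under every alternative were GRPEL1, at 1.12 ± 0.19 (limma adjusted p = 4.3e-06), and PAM16, at 0.87 ± 0.13 (1.8e-07). TIMM44 followed at 0.82 ± 0.13, so that the largest 3 changes were all in motor genes. The motor genes GRPEL2, at 0.74 ± 0.36, and DNLZ, at 0.34 ± 0.24, were not called. The other 8 called genes were TOMM22, TIMM50, TIMM13, TOMM40, PMPCA, TIMM9, TIMM10 and TOMM5, between 0.39 and 0.69. Of these, the deposited scale turned PMPCA, TIMM9, TIMM10 and TOMM5 to values below 0, from -0.15 to -0.002, and left TOMM22, TIMM50, TIMM13, TOMM40 and also TIMM44 above 0 but not called. TIMM10 was not called once any Zab or WT library was left out (0.41 to 0.47), and TIMM9 not without Zab replicate 2 (0.39), WT replicate 1 (0.31) or any 1 of the 4 libraries with overexpressed MYC (0.52). MYC mRNA itself was 1.33 ± 0.09 log2 higher in Zab than in WT, and its part was not tested.

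Some import genes were lower where overexpressed MYC was combined with Zab. In Zab+MYC against MYC 9 of the 32 import genes fell and 0 rose, where 8.14% of all genes tested fell and 11.8% rose, and the import genes' median was -0.26 against -0.002 over all genes. The number that rose was also 0 at an unadjusted p under 0.05 and in edgeR and DESeq2, and 29 of the 32 values were below 0. The largest falls were by 0.77 ± 0.19 for GRPEL1 (limma adjusted p = 0.0023), by 0.67 ± 0.17 for TOMM20 (0.0017) and by 0.49 ± 0.09 for TOMM5 (1.9e-05), then by 0.47 for PMPCB, 0.45 for TOMM34, 0.44 for TIMM44, 0.43 for TIMM50, 0.42 for TOMM40 and 0.37 for TIMM23. PMPCB, TIMM50 and TOMM5 held under every alternative run. Leaving out 1 library ended the call of GRPEL1 (without MYC replicate 2, -0.72 at an adjusted p of 0.056), of TOMM20 (without Zab+MYC replicate 2, -0.51 at 0.12), of TOMM40 (without Zab+MYC replicate 1, -0.36 at 0.052), of TIMM44 (without Zab+MYC replicate 1, -0.40 at 0.11, or MYC replicate 2, -0.46 at 0.06), of TIMM23 (without Zab+MYC replicate 2, -0.24 at 0.27, or MYC replicate 2, -0.35 at 0.12) and of TOMM34 (without Zab+MYC replicate 1, MYC replicate 1 or MYC replicate 2, -0.39 to -0.50). No small TIM chaperone and no TIM22 gene was called, their values lying between -0.48 and -0.06. TIMM22, at -0.48 ± 0.18, lay just above the cut (limma adjusted p = 0.0528). It was called with RLE scaling, on the deposited scale, in edgeR and with the replicate block, but not in DESeq2 or with no filter. On the deposited scale, where the median of all genes is at -0.31, 20 import genes fell and their median was -0.58. MYC mRNA was 0.84 ± 0.09 log2 lower in Zab+MYC than in MYC, and its part was not tested.

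Overexpressed MYC also went with higher import genes in cells that carry Zab, by less than in cells without it. In Zab+MYC against Zab 19 of the 32 rose and 0 fell, where 14.3% of all genes tested rose and 12.5% fell, with a median of 0.48 against -0.006 over all genes. At an unadjusted p under 0.05 in limma 1 gene, TIMM17B, was lower, and in edgeR and DESeq2 0 were. TOMM40 rose most, by 0.90 ± 0.10 (limma adjusted p = 7.2e-11), then TIMM50 by 0.77 ± 0.09 (1.4e-10), TOMM40L by 0.76 ± 0.25 (0.017) and TOMM20 by 0.73 ± 0.17 (0.00039). All 3 receptors and both peptidase subunits were among the 19, with 3 of the 4 genes of the channel and its small subunits, 4 of 6 of TIM23 and 2 of 5 of the motor. The 5 that held under every alternative were PMPCA, TIMM44, TIMM50, TOMM40 and TOMM5. The count fell to 7 without Zab+MYC replicate 1 and to 9 without Zab replicate 2, and was 7 in DESeq2. TOMM40L was at 0.62 with an adjusted p of 0.17 without the first of these libraries and at 0.63 with 0.12 without the other, and TOMM20 at 0.54 with 0.072 and at 0.39 with 0.11. GRPEL1, first in MYC against WT, rose by 0.66 ± 0.19 here, and was at 0.58 with 0.089 and at 0.56 with 0.07 in the same fits. TIMM17B, TOMM7 and GRPEL2 had values below 0, at -0.35, -0.18 and -0.62, none of them called. The 2 groups compared here also differed in ADAR mRNA, at 6101 CPM in Zab and 1043 in Zab+MYC. MYC mRNA went from 212 CPM in Zab to 706 in Zab+MYC, against 83.7 in WT and 1263 in MYC. The part of either was not tested.

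The difference between the effect of MYC with Zab and its effect without Zab was tested directly as an interaction. It was below 0 for 14 import genes and above 0 for 0 of the 32, where 13.3% of all genes tested were called below 0 and 14.6% above, and the import genes' median was -0.58 against 0.02 over all genes. The number above 0 was also 0 at an unadjusted p under 0.05 and in edgeR and DESeq2. For GRPEL1 the rise with MYC was 2.55 without Zab and 0.66 with it, a difference of -1.89 ± 0.28 (limma adjusted p = 6.6e-08). TIMM44 differed by -1.26 ± 0.19 (1.1e-07) and TIMM50 by -1.06 ± 0.13 (2.8e-10). PAM16, TOMM40, TOMM22, TOMM5, TIMM13, TIMM22, PMPCA, TOMM70, TIMM10, TIMM23 and TOMM7 followed, between -1.04 and -0.54. By construction the same number is the change with Zab in cells with overexpressed MYC minus that in cells without it, and it fixes the sign of neither: for GRPEL1 these were -0.77 (Zab+MYC against MYC) and 1.12 (Zab against WT). These contrasts share libraries and are not separate evidence. On the deposited scale, with all genes at a median of 0.22, 10 of the 14 were called. Without Zab+MYC replicate 2 the count was 9. MYC mRNA had an interaction of -2.16 ± 0.13 in the same direction, and its part was not tested. ADAR mRNA was not equal in the groups with Zab, at 6101 CPM in Zab and 1043 in Zab+MYC, and its part was not tested.

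**Figure D4:**
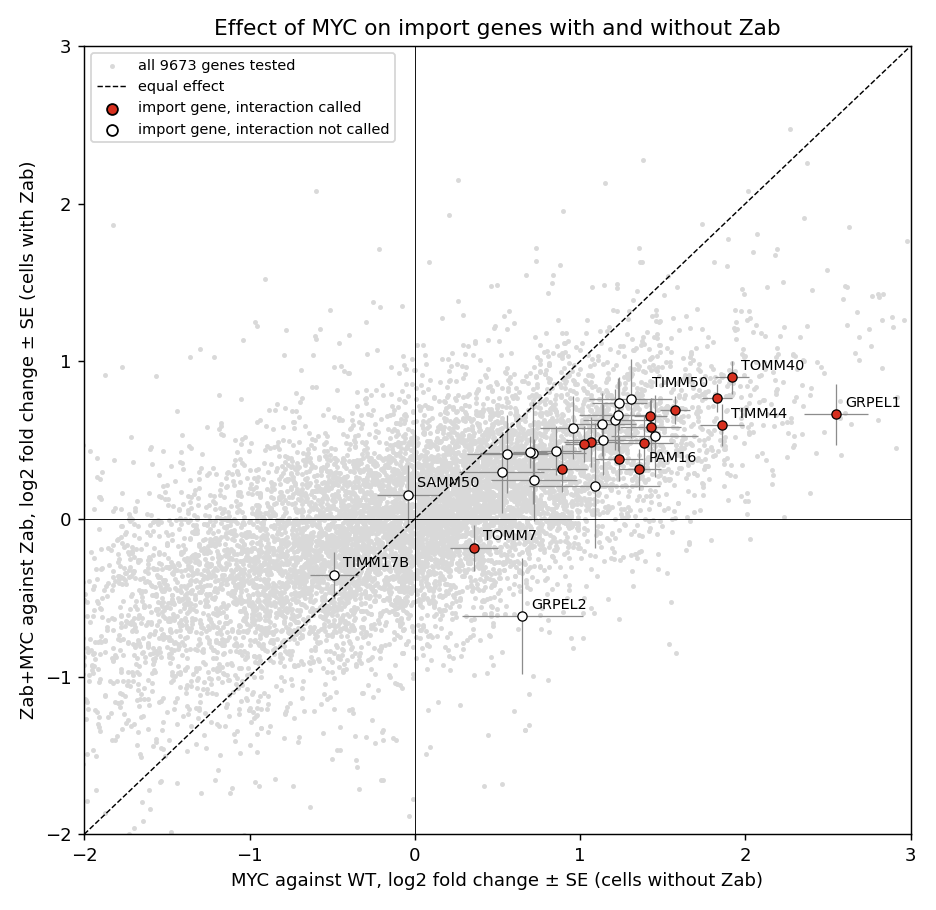
Log2 fold change ± SE with overexpressed MYC in cells without Zab (MYC against WT, horizontal) and with Zab (Zab+MYC against Zab, vertical), for the 32 tested import genes over all 9673 genes tested (grey; those beyond the axes are not drawn). Nearly all import genes lie right of 0 and below the dashed line of equal effect, and the 14 with a called interaction are filled red, GRPEL1 farthest right at 2.55 and 0.66.

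The balance of several paralogs, and of the 2 peptidase subunits, differed between genotypes. These ratios are of tags per kilobase within a library and carry no test. TIMM17A stood at 0.429 of TIMM17B in Zab+MYC, 0.557 in MYC, 0.203 in Zab and 0.190 in WT (geometric means of 2 libraries), so TIMM17B was the more abundant form in all 8 libraries and the balance was nearest to even in MYC. In log2 units the libraries were at -1.36 and -1.08 in Zab+MYC, -0.91 and -0.78 in MYC, -2.20 and -2.40 in Zab, against -2.54 and -2.26 in WT, and those with overexpressed MYC did not overlap those without. GRPEL1 was 10.6 times GRPEL2 in Zab+MYC, 12.3 times in MYC, 4.14 times in Zab and 3.26 times in WT, with overlap between Zab+MYC and MYC and between Zab and WT. PMPCA was 2.46 times PMPCB in Zab+MYC, 2.05 times in MYC, 2.04 times in Zab and 1.23 times in WT, where WT stood apart below the 3 other groups. TOMM40 was 10.8 times TOMM40L in Zab+MYC, 14.0 times in MYC, 9.25 times in Zab and 9.73 times in WT, with overlap between all groups but MYC. TIMM8A was at 0.271 of TIMM8B in Zab+MYC, 0.301 in MYC, 0.229 in Zab and 0.153 in WT. There the Zab+MYC libraries overlapped those of MYC and of Zab, and only WT stood apart below the others. The ratios of TIMM10 to TIMM10B (8.23 to 10.3 over the groups) and of TIMM23 to TIMM23B (17.3 to 21.3) overlapped between groups.

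**Figure D5:**
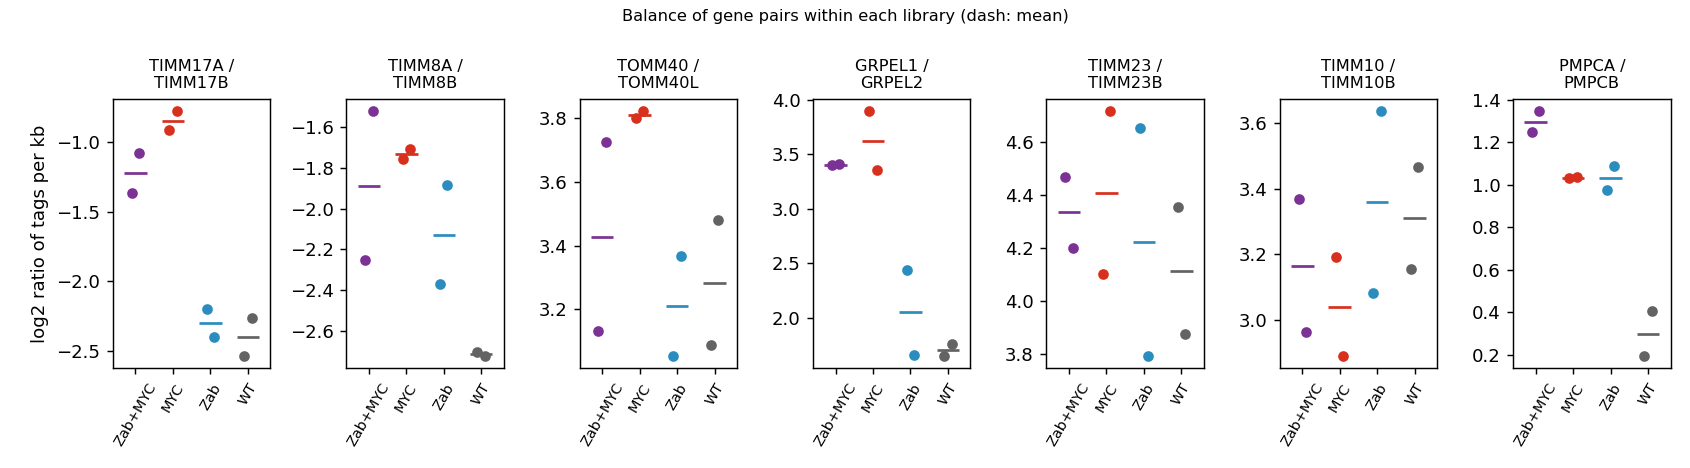
Log2 ratio of tags per kilobase of 7 gene pairs in each library (points) with the mean of each group (dash); each panel has its own axis. The 4 libraries with overexpressed MYC lie above the 4 others for TIMM17A over TIMM17B and GRPEL1 over GRPEL2, and WT lies below the other groups for PMPCA over PMPCB.

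Genes that work with the translocases were read from the same fit, and their difference from the import genes was not tested. Of 56 such genes in 6 lists (matrix chaperones, proteases, oxidation in the intermembrane space, outer membrane assembly and porins, contact sites, cytosolic delivery) 54 were tested. In MYC against WT 29 rose and 2 fell, with a median of 0.50, where 27.8% of all genes tested rose and 30.4% fell. Of the 9 matrix chaperones and translocase partners 5 rose and 4 were not called, with a median of 0.48, and HSPE1 and HSPD1, which fold imported proteins, rose by 1.81 ± 0.08 and 1.77 ± 0.06. HSPE1 averaged 542 ± 2.10 CPM in Zab+MYC, 831 ± 61.2 in MYC, 366 ± 11.7 in Zab and 235 ± 3.21 in WT (SD, n = 2 each), the same order as most import genes. Among the cytosolic chaperones that bring precursors DNAJA1 rose by 1.52 ± 0.09 and HSPA8 by 1.48 ± 0.04, and of the porins VDAC1 rose by 1.18 ± 0.09 and VDAC2 by 0.90 ± 0.12. In Zab against WT 15 rose and 4 fell (median 0.11), where 13.1% of all genes rose and 11.3% fell, and ROMO1, a TIM23 partner, had the largest change at 0.94 ± 0.08. In Zab+MYC against MYC 8 of the 54 fell (median -0.16), where 8.14% of all genes fell: HSPE1, HSPD1 and TRAP1 in the matrix, VDAC1 in the outer membrane, and HSP90AA1, DNAJA1, HSPA8 and HSP90AB1 in the cytosol. The 8 were named because they are all of those called, HSP90AB1, HSPA8 and TRAP1 after their values were seen. In Zab+MYC against Zab 22 rose and 2 fell (median 0.29), where 14.3% of all genes rose and 12.5% fell. The interaction was below 0 for 17 and above 0 for 2 (median -0.27), where 13.3% of all genes were below 0 and 14.6% above.

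Genes of mitochondrial ribosomal proteins, which translate the organelle's own messages, are given for comparison. Of their 78 tested genes 63 rose and 1 fell in MYC against WT (median 0.94), 26 rose and 1 fell in Zab against WT (0.29), 20 fell in Zab+MYC against MYC (-0.27), 32 rose and 1 fell in Zab+MYC against Zab (0.37), and the interaction was below 0 for 38 and above for 1 (-0.59). Of the nuclear genes of the respiratory chain and ATP synthase 81 of 90 were tested: 51 rose and 7 fell in MYC against WT (0.52), 25 rose and 5 fell in Zab against WT (0.14), 16 fell and 3 rose in Zab+MYC against MYC (-0.15), 28 rose and 4 fell in Zab+MYC against Zab (0.23), and the interaction was below 0 for 32 and above for 3 (-0.30). The shares of all genes called are those given above, and the difference between these families and the import genes was not tested.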

How the data were processed

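Per the file headers, HOMER's analyzeRepeats counted tags in exons of hg19 RefSeq coding genes with 1 transcript kept per symbol, in folders named for a spike-in. The submitters' processing notes list HOMER 4.11.1, STAR and Trim Galore 0.6.6, and the builds hg19 and dm6 without a role. The STAR version, the use of strand and the scaling are not given in the sources used here. The deposited values are a signal, not counts: in each library 100% fell on multiples of a fixed step (tolerance 0.1 step), and 2 steps were taken as 1 tag, since at 1 step per tag exon tags would come to 121% to 152% of the header's total. Exon tags were 60.6% to 76.1% of that total.

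Tags recovered from the signal were scaled to CPM with TMM factors. limma 3.58.1 was fitted, with a mean-variance trend, on log2(CPM + 2) of the 9673 genes kept by filterByExpr, with 1 mean per group over all 8 libraries and 4 residual degrees of freedom, two-sided, with Benjamini-Hochberg adjustment over all genes and an adjusted p under 0.05 called. Very small p-values rest on the spread pooled over genes, and edgeR's common dispersion was 0.000172. Fold changes on this scale understate those of low genes. CPM per kb divides by the exon length of the counted transcript, which differed between libraries for 7 of the 33 genes (CHCHD4, PMPCA, TIMM17B, TIMM23B, TOMM40, TOMM40L and TOMM5). Alternatives were RLE scaling, the deposited scale, a filter of 5 CPM in 2 libraries and none, pseudocounts of 1 and 5 CPM, edgeR 4.0.16 and DESeq2 1.42.0 on rounded tags, the 4 libraries alone, a replicate block, genes with 1 transcript in all 8 libraries, and each library left out. The fits were also run on simulated data, with a larger spread between libraries and far fewer changed genes than here. That run therefore does not measure error rates in these data. Sequence sharing was read from GENCODE v29 transcripts, in stretches of 50 bases. Their lengths can differ from those counted: 724 bases against 3091 for DNLZ, and 637 against 849 for TOMM6. R 4.3.3, Python 3.11.15, pandas 2.3.3, numpy 2.4.6 and matplotlib 3.10.9 were used.

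The genes, their lists and the tests were chosen with earlier results of these data known. Values per library are given for members fixed by role, for the 3 largest called changes of each comparison, for calls against the main direction and for paralog pairs; of other pathway genes at most 2 per list and comparison are named, those with the largest called change, with the exceptions stated.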

Additional observations from a re-analysis of the deposited data

Results flagged for a closer look

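For 14 import genes the effect of overexpressed MYC differed between cells with and without Zab by a test of the difference itself (interaction in limma, adjusted p under 0.05 over all genes). The differences, as log2 fold change with Zab minus that without, were -1.89 for GRPEL1, -1.26 for TIMM44, -1.06 for TIMM50, -1.04 for PAM16, -1.02 for TOMM40, -0.90 for TOMM22, -0.88 for TOMM5, -0.85 for TIMM13, -0.84 for TIMM22, -0.77 for PMPCA, -0.58 for TOMM70, -0.57 for TIMM10, -0.55 for TIMM23 and -0.54 for TOMM7. GRPEL1, TIMM44, TIMM50, PAM16, TOMM40, TOMM5, TIMM13 and PMPCA held under every alternative run; the call of TOMM22 was lost in DESeq2, those of TIMM22, TIMM10, TIMM23, TOMM70 and TOMM7 in DESeq2 and with some libraries left out, of these TIMM10, TIMM23, TOMM70 and TOMM7 also on the deposited scale, TOMM70 and TOMM7 among genes with 1 transcript in all libraries, and TOMM70 with no filter. All 14 were below 0, as was the interaction of MYC mRNA at -2.16, whose part was not tested. The part of ADAR mRNA, at 6101 CPM in Zab and 1043 in Zab+MYC, was not tested either.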

How the results depend on the processing

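At 686992 to 1326170 exon tags per library a CPM near 1 is about 1 tag, so low genes such as TOMM20L could not be resolved. Counts of import genes called moved by over 1.5 times as follows. On the deposited scale 2 rose and 6 fell in Zab against WT (11 and 0 on library totals) and 20 fell in Zab+MYC against MYC (9). DESeq2 gave 6 higher in Zab against WT, 7 higher in Zab+MYC against Zab (19), 8 below 0 in the interaction (14) and 0 lower in MYC against WT (1). Among genes with 1 transcript in all libraries, where 25 import genes were tested, 9 were below 0 in the interaction and 0 lower in MYC against WT. On the deposited scale 21 of 32 values in Zab against WT were below 0, against 3 on library totals. Of the 18 that turned, 7 were called on 1 of the 2 scales: PMPCA to -0.0078, TIMM10 to -0.10, TIMM9 to -0.0025, TOMM5 to -0.15, TIMM17B to -0.46, TIMM23 to -0.36 and TOMM7 to -0.37; the cause was not tested. On that scale the median of all genes was at -0.51 in Zab against WT, -0.09 in MYC against WT, 0.14 for Zab+MYC over Zab, -0.31 for Zab+MYC over MYC and 0.22 in the interaction. With 1 library left out, and the lone library assumed to vary like the rest, 24 to 29 were higher and 0 to 1 lower in MYC against WT (0 without MYC replicate 1), 10 higher in each fit and 0 to 1 lower in Zab against WT (1 without Zab replicate 1), 5 to 13 lower in Zab+MYC against MYC (5 without MYC replicate 2), 7 to 20 higher and 0 to 1 lower in Zab+MYC against Zab (7 without Zab+MYC replicate 1, 9 without Zab replicate 2, which also gave the 1 lower), and 9 to 15 below 0 in the interaction (9 without Zab+MYC replicate 2). Libraries of the same number did not deviate together (correlations from -0.023 to 0.014). As the libraries of a group differed by no more than counting noise, these correlations cannot show whether the numbers mark a pairing. With the replicate block the counts were 11 higher in Zab against WT, 28 higher and 1 lower in MYC against WT, 10 lower in Zab+MYC against MYC, 19 higher in Zab+MYC against Zab and 14 below 0 in the interaction.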
